A study of Mus musculus with 6 samples.

Results

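The genes of the mitochondrial respiratory chain and ATP synthase were followed in both genomes that encode them. Members were all rows of the deposited table whose symbol begins with Nduf, Uqcr or Atp5, or is Cyc1, one of Sdha to Sdhd, or a Cox symbol numbered 4 to 8, together with the protein-coding genes of mitochondrial DNA. The rule used no expression value. It found 107 of 14238 genes, of which 94 are nuclear and 13 are mitochondrially encoded. The nuclear set holds 77 structural subunits, 8 assembly factors of complex I, 1 supercomplex factor and 8 pseudogenes or gene copies.

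The cells were Ba/F3, an established mouse pro-B line that depends on interleukin-3. All 6 cultures carried an ETV6::FRK fusion (ETV6 is a transcription factor of the ETS family, FRK a tyrosine kinase), delivered by retroviral Tet-On vectors that respond to doxycycline. The induced group received 500 ng/ml doxycycline and the control group received none. The source labels mark the induced cultures ETV6::FRK(+) and the controls ETV6::FRK(-). RNA was taken at 48 h from 3 cultures per group. The titles pair the groups under the prefixes EF1, EF2 and EFPC, which are replicates 1, 2 and 3, and the labels do not say what the prefixes mean or whether the cultures were separate experiments. P-values therefore measure the spread between these cultures, which may be technical. Titles of induced libraries also carry IL3n and those of controls IL3p, whose meaning the protocols do not give. Doxycycline is known to inhibit the mitochondrial ribosome, and only induced cultures received it. The drug, the fusion and the IL3 mark go together and cannot be told apart. In bulk RNA, fewer cells of a kind and less RNA per cell cannot be told apart either.

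The respiratory chain moves electrons from NADH through complex I, or from succinate through complex II, to ubiquinone, then through complex III and cytochrome c to oxygen at complex IV. Complexes I, III and IV pump protons, and complex V, the ATP synthase, uses the resulting gradient to make ATP. Complex II is wholly nuclear encoded, while the other complexes combine nuclear subunits with a few hydrophobic subunits made from mitochondrial DNA. The mitochondrial genes are transcribed as long polycistronic RNAs that are cut into shorter messengers, whereas each nuclear gene has a promoter of its own.

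Libraries held between 30970019 and 43177842 counts, and depth overlapped between the groups. Of 13260 genes tested with edgeR's quasi-likelihood test, 0 passed a Benjamini-Hochberg adjusted p of 0.05 in either direction, and the smallest adjusted p was 0.127. At an unadjusted p under 0.05 edgeR had 1238 genes higher (9.34%) and 1091 lower. DESeq2, an alternative here and the test behind the authors' deposited table, called 558 genes higher and 348 lower, and limma-voom called 0. Of 11 markers of the pro-B and B lineage, Cd79a, Cd79b and Spn have a row in the table, with summed levels of 249.6 to 299.7 CPM in the controls and 361 to 456 CPM in the induced libraries, nearly all of it Spn. Pax5 and Ebf1 were not analysed here, so the pro-B label could not be checked on them. The mast cell and basophil list, 2 of 4 genes with a row, summed to 996 to 1017 CPM in the controls and to 653, 671 and 1194 CPM in induced replicates 1 to 3, nearly all of it Gata2. The erythroid list, 3 of 3 genes with a row, summed to 127, 77.6 and 141 CPM in the EF1, EF2 and EFPC controls and to 70.3, 66.3 and 472 CPM in their induced partners, so that induced EFPC was high, mostly through Hbb-bs. The macrophage and granulocyte list, 3 of 5 genes with a row, summed to 25.5 to 29.9 CPM in the controls. In the induced libraries it summed to 11.2 to 21.3 CPM, without overlap, mostly through Adgre1. Adgre1 had 14.9 to 24.3 CPM in the controls and 5.92 to 11.4 CPM in the induced libraries, while the ranges of Lyz2 and Mpo overlapped. The part of these markers in the results below was not tested.

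Nuclear genes of the respiratory chain had lower values in the induced libraries, by a modest amount and in nearly every member. Of 92 nuclear members tested, 90 had a negative log2 fold change by edgeR, with a median of -0.45, where 51.5% of all tested genes were negative and 48.5% positive, with a median of -0.01. Members passing edgeR at an adjusted p of 0.05 numbered 0 in either direction (background 0.0%), and the smallest adjusted p of a member was 0.143. At an unadjusted p under 0.05, 51 of the 92 were lower and 0 higher, where 8.23% of all tested genes were lower. DESeq2 called 12 lower and 0 higher at an adjusted p of 0.05, with backgrounds of 2.65% lower and 4.25% higher. With the replicate number as a block, DESeq2 called 22 lower and 0 higher (backgrounds 4.73% and 6.40%), and the 12 were all among the 22. Most members are abundant, and among genes averaging at least 30 CPM the lower calls were 3.01% and, with the block, 5.51%. In 57 of the 92, all 3 induced libraries lay below all 3 controls and in 0 above, where 13% of all tested genes lay below and 11.2% above.

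The lower values were seen in all 3 culture pairs and were closest to 0 in the EFPC pair. The median log2 difference of the nuclear members was -0.40, -0.65 and -0.22 in the EF1, EF2 and EFPC pairs, with 87, 90 and 78 of the 92 lower. In 75 of the 92 the induced library was the lower one in every pair and in 0 the higher one, where 25.8% of all tested genes were lower and 21.2% higher in every pair. Set against the control mean, the member medians were -0.38, -0.46 and -0.43 for the induced cultures EF1, EF2 and EFPC and 0.03, 0.22 and -0.24 for their controls. The induced libraries were thus close to each other, and the controls were spread, with EFPC lowest and EF2 highest. Summed over the 77 structural subunits, nuclear transcripts took 1.44%, 1.57% and 1.23% of the counts in the EF1, EF2 and EFPC controls and 1.03%, 1.01% and 1.08% in their induced partners. These shares have 95% Wilson intervals of at most 0.0047 percentage points to either side, which cover counting error only.

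**Figure D1:**
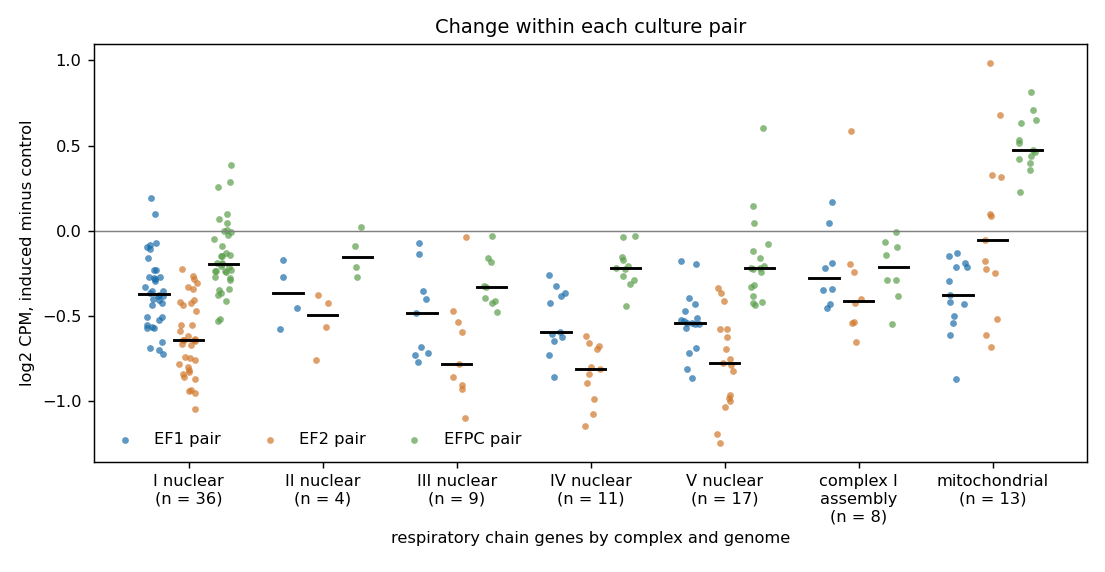
Log2 CPM difference, induced minus control of the same pair, for each tested gene (points) and its median (bar), by complex and genome, with the EF1, EF2 and EFPC pairs in separate colours. Medians of nuclear subunits lie below 0 in every complex and pair, while the 13 mitochondrial transcripts lie below 0 in EF1 and above 0 in EFPC.

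Complex I, which oxidises NADH, is the largest of the complexes. Of its 36 nuclear subunits, 35 had negative values, with a median log2 fold change of -0.41 by edgeR. DESeq2 called 3 of them lower and 6 with the replicate block, and edgeR 0. The 7 core subunits, which form the electron path, and the 29 accessory subunits around them had medians of -0.41 and -0.41. Of the core subunits, 0 were called by edgeR or DESeq2, the replicate block included.

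The 3 called subunits of complex I were accessory. Ndufa12, a subunit of the peripheral arm, had 89.8, 91.8 and 76.9 CPM without doxycycline and 60.6, 58.7 and 53.6 CPM with it. Every induced value lay below every control (log2 fold change -0.56, SE 0.162, DESeq2 adjusted p = 0.0137, edgeR adjusted p = 0.153). Ndufa5, also of the peripheral arm, had 49.3, 49.1 and 43.3 CPM in control cultures, against 30.3, 25.5 and 34.1 CPM under doxycycline (log2 fold change -0.64, SE 0.191, DESeq2 adjusted p = 0.0194, edgeR adjusted p = 0.158). Ndufv3, of the NADH-oxidising module, had 78.5 ± 15.3 CPM in controls and 50.7 ± 2.66 CPM in induced cultures (SD, n = 3 each), with a DESeq2 adjusted p of 0.0459 and an edgeR adjusted p of 0.169. With the replicate block the membrane arm subunit genes Ndufb6, Ndufc1 and Ndufc2 passed as well (DESeq2 adjusted p = 0.0385, 0.0464 and 0.0148). Ndufc2 had the most negative value of the complex, -0.67 by edgeR.

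A few complex I genes stood near 0. Ndufa7 was the only nuclear structural subunit with a positive value, at 52.7, 71.1 and 41.1 CPM without doxycycline and 60.3, 60.7 and 50.2 CPM with it. Ndufa6, another accessory subunit, had 83.3, 127 and 62.8 CPM in control cultures, against 89.2, 101 and 74.9 CPM under doxycycline. Both had overlapping groups, with log2 fold changes of 0.05 and -0.05 by edgeR (adjusted p = 0.920 and 0.947). The 8 assembly factors Ndufaf1 to Ndufaf8, which help to build complex I but are not part of it, had a median of -0.28, with 7 negative and 0 called by edgeR or DESeq2, the replicate block included. Ndufaf4 was the exception in sign, at 31.7, 29.7 and 44.1 CPM without doxycycline and 35.5, 44.6 and 36.0 CPM with it (edgeR log2 fold change 0.14, adjusted p = 0.744). It was higher after induction in EF1 and EF2 and lower in EFPC.

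Complex II, the succinate dehydrogenase shared with the citric acid cycle, had 4 negative values of 4, a median of -0.29 and 1 DESeq2 call. Sdhd, a membrane anchor (chromosome 9, 50596340 to 50603849, GRCm38.p6), had 209, 227 and 197 CPM without doxycycline and 139.6, 134 and 163 CPM with it. The groups did not overlap (log2 fold change -0.52, SE 0.166, DESeq2 adjusted p = 0.0334, edgeR adjusted p = 0.169). The catalytic flavoprotein gene Sdha had 259.8, 259 and 321 CPM in control cultures, against 189, 199 and 302 CPM under doxycycline. Its EFPC values were high in both groups, and the groups overlapped (DESeq2 adjusted p = 0.606). Sdhb, the iron-sulphur subunit, and Sdhc, the other anchor, had edgeR log2 fold changes of -0.27 and -0.29 and were not called.

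Complex III, which passes electrons from ubiquinol to cytochrome c, had a nuclear median of -0.56 over 9 subunits, and all 9 were lower in every pair. DESeq2 called 3 lower, 4 with the replicate block, and edgeR 0. Uqcrfs1, the Rieske iron-sulphur protein that takes electrons from ubiquinol (chromosome 13, 30540312 to 30545316), had 144, 174 and 153 CPM without doxycycline and 87.7, 95.8 and 114 CPM with it. The highest induced value was below the lowest control (log2 fold change -0.65, SE 0.183, DESeq2 adjusted p = 0.0118, edgeR adjusted p = 0.156). The small subunit gene Uqcr10 had 111 ± 16.6 CPM in controls and 73.7 ± 5.96 CPM in induced cultures (SD, n = 3 each, DESeq2 adjusted p = 0.0411, edgeR 0.165). Uqcr11, another small subunit, had 96.6, 106 and 78.9 CPM in control cultures, against 56.7, 49.1 and 70.6 CPM under doxycycline (DESeq2 adjusted p = 0.0484, edgeR 0.172). Uqcrb, also a small subunit, passed DESeq2 with the block (adjusted p = 0.0187 against 0.179 without it). Uqcrc2, a core protein of the complex, kept to a narrow range, at 256, 235 and 242 CPM without doxycycline and 232, 229 and 213 CPM with it. Its induced values were all below its controls, by little (log2 fold change -0.10, SE 0.137, DESeq2 adjusted p = 0.740, edgeR adjusted p = 0.670). Its partner Uqcrc1 had a DESeq2 log2 fold change of -0.41 (SE 0.156, adjusted p = 0.0949).

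Complex IV, cytochrome c oxidase, had a nuclear median of -0.54, and all 11 of its nuclear subunits were lower in every pair. Without control replicate 2 the median was -0.35. DESeq2 called 2 lower, 4 with the replicate block, and edgeR 0. Ndufa4 is counted here because its product, once listed under complex I, is known as a subunit of complex IV. It had 210.2, 233 and 149 CPM in control cultures, against 116, 105 and 134 CPM under doxycycline (log2 fold change -0.72, SE 0.234, DESeq2 adjusted p = 0.0358, edgeR adjusted p = 0.169). Cox7b, a small subunit encoded on the X chromosome (106015700 to 106022450), had 185, 179 and 145 CPM without doxycycline and 111, 96.1 and 124 CPM with it (log2 fold change -0.60, SE 0.195, DESeq2 adjusted p = 0.0363, edgeR adjusted p = 0.165). In both genes the groups did not overlap, and EFPC was the lowest control. Cox7a2 and Cox7c passed with the replicate block (DESeq2 adjusted p = 0.00587 and 0.0488 against 0.0909 and 0.0966 without it). Cox8a had 358 ± 84.4 CPM in controls and 256 ± 31.1 CPM in induced cultures (SD, n = 3 each, DESeq2 adjusted p = 0.255). Cox4i1 had 422 ± 126 CPM in controls and 324 ± 34.5 CPM in induced cultures (SD, n = 3 each, DESeq2 adjusted p = 0.469). Per length these were the highest nuclear genes of the complex, at mean levels of 1183 and 1019.98 TPM in the controls, and the groups of both overlapped. Cox7a2l, which joins complexes III and IV into supercomplexes, had 187, 270.2 and 133 CPM in control cultures, against 179.9, 224 and 147 CPM under doxycycline. Its control range covered all induced values (edgeR log2 fold change -0.10, adjusted p = 0.884). The tissue-restricted isoforms Cox4i2, Cox6a2, Cox6b2, Cox7a1, Cox8b, Cox8c and Ndufa4l2 were not analysed here.

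Complex V, the ATP synthase, had a nuclear median of -0.53 over 17 subunits, all negative, with 3 called lower by DESeq2, 7 with the replicate block and 0 by edgeR. Medians were -0.38 in the 5 subunits of the catalytic F1 head, -0.46 in the 3 genes of the rotating c ring, -0.54 in the 4 of the peripheral stalk and -0.63 in the 5 small membrane subunits, differences that were not tested. Atp5j2, subunit f of the membrane part (chromosome 5, 145183704 to 145191541), had the most negative value of all nuclear members tested. It had 142, 165 and 126 CPM without doxycycline and 80.9, 69.6 and 92.9 CPM with it. The groups were well apart (log2 fold change -0.81, SE 0.204, DESeq2 adjusted p = 0.00326, edgeR adjusted p = 0.143). Atp5md, which encodes the small membrane subunit DAPIT, had 95.9, 113 and 81.4 CPM in control cultures, against 58.3, 55.0 and 62.5 CPM under doxycycline (log2 fold change -0.71, SE 0.192, DESeq2 adjusted p = 0.00796, edgeR adjusted p = 0.153). Atp5pb, subunit b of the stalk, had the tightest groups of the 12 called genes, at 396, 381 and 361 CPM without doxycycline and 271, 247 and 269 CPM with it (log2 fold change -0.52, SE 0.140, DESeq2 adjusted p = 0.00777, edgeR adjusted p = 0.161). With the block, Atp5c1 and Atp5d of the F1 head and Atp5o of the stalk passed too (DESeq2 adjusted p = 0.0266, 0.0315 and 0.0453). The catalytic beta subunit gene Atp5b, the most abundant nuclear member at 1805 ± 157 TPM in the controls (SD, n = 3), had 2008, 1851 and 1720.2 CPM in control cultures, against 1524, 1466 and 1285 CPM under doxycycline. It passed neither DESeq2 (adjusted p = 0.157) nor edgeR (0.304).

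The 3 genes of the c ring encode the same mature protein with different import signals. Atp5g3 had 295, 269.8 and 248 CPM without doxycycline and 162, 138 and 215 CPM with it, with no overlap, and passed DESeq2 with the block (adjusted p = 0.0259 against 0.0564 without it). Atp5g1 had 188 ± 33.7 CPM in controls and 136 ± 7.19 CPM in induced cultures (SD, n = 3 each, DESeq2 adjusted p = 0.170). Atp5g2 had 284, 373 and 193 CPM in control cultures, against 248, 289 and 213 CPM under doxycycline, overlapping groups with an edgeR log2 fold change of -0.18 that was 0.10 without control replicate 2. The F1 subunit gene Atp5e also had a wide control range, at 107, 168 and 67.8 CPM without doxycycline and 94.2, 98.4 and 103 CPM with it.

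**Figure D2:**
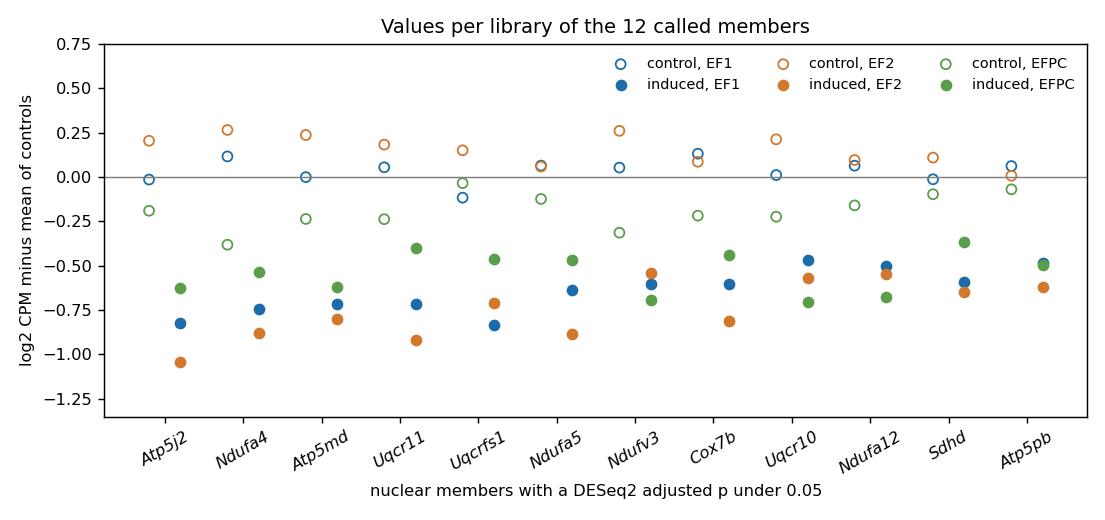
Log2 CPM minus the mean of the 3 controls, for the 12 nuclear members with a DESeq2 adjusted p under 0.05, with open points for control and filled points for induced libraries of the EF1, EF2 and EFPC pairs. In each of the 12 genes all induced points lie below all control points, and control EFPC is the lowest control in all but Uqcrfs1.

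Promoters of 4 nuclear members are shown as examples, each holding a match to the motifs marked below. The sequences are RefSeq promoters of GRCm38.p6, from 250 bases before to 50 after the start, written 5' to 3' on the gene's strand, and 74 of the 94 nuclear members had an entry. Capitals mark matches to 3 motifs, CCGGAAG of ETS factors, AAGATGGC of YY1 and CGCATGCG, the core of the NRF1 motif, on either strand. Atp5j2 (chr5:145191492-145191791, minus strand) holds the YY1 motif. Atp5md (chr19:47090598-47090897, minus strand) holds the ETS motif. Uqcr11 (chr10:80406772-80407071, minus strand) and Cox6a1 (chr5:115348909-115349208, minus strand), a complex IV subunit that was not called (DESeq2 adjusted p = 0.287), hold both the ETS and the NRF1 motif.
Atp5j2: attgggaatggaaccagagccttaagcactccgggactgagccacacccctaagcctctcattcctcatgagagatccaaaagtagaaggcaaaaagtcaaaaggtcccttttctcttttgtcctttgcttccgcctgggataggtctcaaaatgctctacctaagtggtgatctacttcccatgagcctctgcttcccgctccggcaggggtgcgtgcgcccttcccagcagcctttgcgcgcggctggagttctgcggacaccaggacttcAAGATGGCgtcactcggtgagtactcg
Atp5md: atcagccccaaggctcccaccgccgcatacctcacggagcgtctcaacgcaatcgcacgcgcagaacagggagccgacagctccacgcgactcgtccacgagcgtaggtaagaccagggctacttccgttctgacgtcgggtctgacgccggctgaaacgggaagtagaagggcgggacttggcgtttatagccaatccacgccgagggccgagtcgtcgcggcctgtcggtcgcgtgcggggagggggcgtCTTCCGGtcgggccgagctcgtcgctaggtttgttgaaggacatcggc
Uqcr11: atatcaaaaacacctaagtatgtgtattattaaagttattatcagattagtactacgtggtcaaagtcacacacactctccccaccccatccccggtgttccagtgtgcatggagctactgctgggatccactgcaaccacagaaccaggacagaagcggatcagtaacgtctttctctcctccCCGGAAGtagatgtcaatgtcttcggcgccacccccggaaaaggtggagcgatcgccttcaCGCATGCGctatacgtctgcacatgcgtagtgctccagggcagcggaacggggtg
Cox6a1: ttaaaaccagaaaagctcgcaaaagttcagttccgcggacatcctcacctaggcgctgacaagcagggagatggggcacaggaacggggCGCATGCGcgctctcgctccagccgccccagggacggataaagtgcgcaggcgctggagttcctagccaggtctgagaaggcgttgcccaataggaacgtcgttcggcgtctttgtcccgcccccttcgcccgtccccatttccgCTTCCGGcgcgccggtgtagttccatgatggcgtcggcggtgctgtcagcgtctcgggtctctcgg

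None of these 3 motifs contains another. CCGGAAG was in 19 of 79 (24.1%), against 18.2% of the promoters of genes in the count table and 8.86% of all promoters. AAGATGGC was in 11 of 79 (13.9%), against 4.60% of the promoters of genes in the count table and 2.75% of all promoters. CGCATGCG was in 11 of 79 (13.9%), against 3.85% of the promoters of genes in the count table and 1.87% of all promoters. Lengthened by a G before and a C after it, that motif was in 7 of 79 (8.86%), against 2.13% of the promoters of genes in the count table and 0.971% of all promoters. The longer form was searched first and its core CGCATGCG after it, both with the data known. The fourth motif searched, CCAAT, was in 32 of 79 (40.5%), against 38.2% of the promoters of genes in the count table and 37.4% of all promoters. The count out of 79 is in each case over promoters of nuclear members. Among the 13 promoters of the 12 genes called by DESeq2, 3 held CCGGAAG, 2 held AAGATGGC, 5 held CCAAT and 1 held CGCATGCG, with 0 holding its longer form. Of these genes, Ndufa12, Ndufa5, Ndufv3, Uqcrfs1, Uqcr10, Ndufa4 and Cox7b held none of CCGGAAG, AAGATGGC and CGCATGCG. A match describes letters in this window and not a bound site.

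The pseudogenes and copies among the members share sequence with their parent genes. Of 8, 6 were tested, all with negative values and a median of -0.39, and 0 were called by edgeR or DESeq2. Atp5l-ps1 and Atp5l-ps2 were under the low-count filter. Atp5l2-ps had an edgeR log2 fold change of -0.75 and Atp5pb-ps one of -0.78. How reads of near-identical genes were divided is unstated, so these values and those of their parents are uncertain, as are mitochondrial genes with nuclear copies.

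The 13 mitochondrially encoded transcripts had no common direction. Their median log2 fold change was 0.05 by edgeR, with 6 negative and 7 positive. Calls numbered 0 in either direction in edgeR (backgrounds of 0.0%) and in DESeq2 with and without the block, and 0 of the 13 passed an unadjusted p of 0.05 in edgeR. In all 13 the groups overlapped. The near-zero median joins pairs that went apart. In the EF1 pair all 13 transcripts were lower in the induced library, in EF2 7 were lower and 6 higher, and in EFPC all 13 were higher. The pair medians were -0.38, -0.06 and 0.47. Without replicate 3 of both groups, edgeR called ND1 and ND3 lower, in a fit that called 844 genes lower and 1300 higher.

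**Figure D3:**
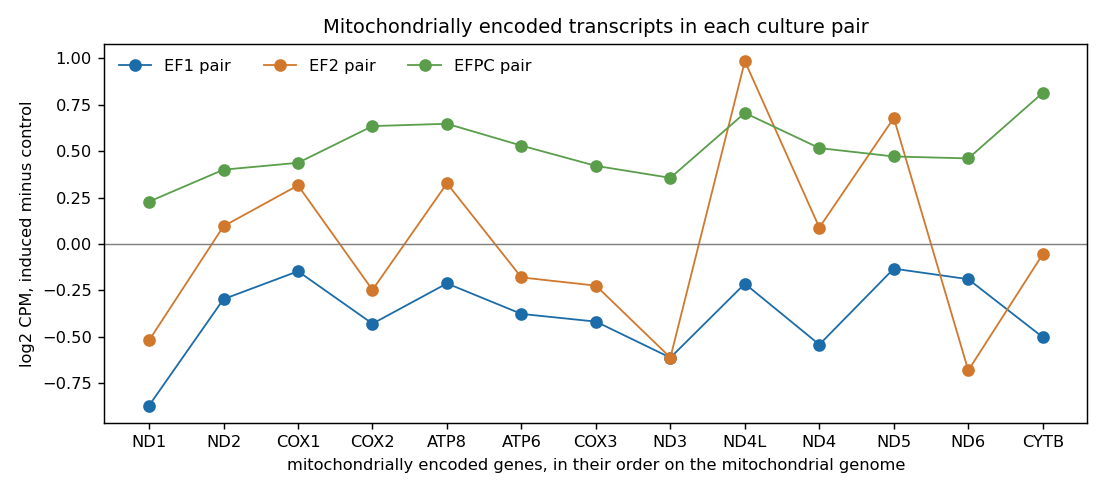
Log2 CPM difference, induced minus control, of the 13 mitochondrially encoded genes in their order on the mitochondrial genome, with 1 line per culture pair. The EF1 line lies below 0 and the EFPC line above 0 at every gene, and the EF2 line crosses 0.

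COX1, the catalytic core of complex IV, was the most abundant member per length, at 7097 ± 870.1 TPM in the controls and 8745 ± 963 TPM after induction (SD, n = 3 each, the authors' TPM values). It had 6852, 5884 and 5321 CPM in control cultures, against 6187, 7323 and 7205 CPM under doxycycline. The groups overlapped (edgeR log2 fold change 0.20, adjusted p = 0.664, with fold changes of 0.12 to 0.30 when single libraries were left out). COX2 had 1386 ± 354 CPM in controls and 1347 ± 177 CPM in induced cultures and COX3 had 1696 ± 341 CPM in controls and 1602 ± 256 CPM in induced cultures (SD, n = 3 each). CYTB, the mitochondrial subunit of complex III, had 1878, 1607 and 1332 CPM without doxycycline and 1325, 1547 and 2344 CPM with it. The highest CYTB value was thus that of induced EFPC, and the lowest were those of induced EF1 and control EFPC.

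The complex I transcripts of mitochondrial DNA differed from each other. ND1 had 2233, 1912 and 2239 CPM in control cultures, against 1221, 1333 and 2623 CPM under doxycycline. Induced EF1 and EF2 lay below every control and induced EFPC was the highest library, which gave an edgeR log2 fold change of -0.30 with an adjusted p of 0.657. ND3 showed the same order, at 139.98, 157 and 138 CPM without doxycycline and 91.5, 102 and 177 CPM with it. ND5 had 989.8, 658 and 1071 CPM in control cultures, against 902, 1053 and 1486 CPM under doxycycline (edgeR log2 fold change 0.34, adjusted p = 0.541), and the lowest library was control EF2. ND4L, at 129, 69.4 and 126 CPM without doxycycline and 111, 137 and 206 CPM with it, had the most positive value of the 13, 0.49 by edgeR (adjusted p = 0.450). ND6, encoded on the opposite strand from the other 12, had 86.7 ± 19.2 CPM in controls and 78.3 ± 14.1 CPM in induced cultures (SD, n = 3 each). ND2 and ND4 had edgeR log2 fold changes of 0.09 and 0.05. These values moved with single libraries: leaving out each in turn gave -0.73 to -0.11 for ND1, -0.57 to -0.053 for ND3, 0.21 to 0.66 for ND4L and 0.12 to 0.49 for ND5. ND1 was -0.73 without induced replicate 3, and ND4L was 0.27 without control replicate 2 and 0.21 without induced replicate 3.

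Within a library, the ratio of ND1 to COX1 counts was 0.326, 0.325 and 0.421 in the EF1, EF2 and EFPC controls and 0.197, 0.182 and 0.364 in their induced partners. Induced over control, it changed by factors of 0.605, 0.560 and 0.865, below 1 in each pair, although both messengers come from the same strand. The ratio of ND3 to COX1 changed by factors of 0.724, 0.525 and 0.945, also below 1 in each pair. So did those of ND2 (0.901, 0.859 and 0.975) and COX3 (0.828, 0.688 and 0.989). That of ND5 to COX1 changed by factors of 1.01, 1.29 and 1.02, and the remaining transcripts were mixed. COX1 took 33.7%, 32.3% and 32.4% of mitochondrial counts in the EF1, EF2 and EFPC controls. In their induced partners it took 38.7%, 38.9% and 31.5%, so the ratios to COX1 also reflect its own share. These ratios do not depend on library scaling, were chosen after the values were seen and have no test.

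Neighbouring mitochondrial genes cannot be fully separated by counting. In GENCODE M21 (GRCm38), ATP8 and ATP6 share 43 bases (chrM:7927-7969, plus strand), shown here with the start codon of ATP6 in capitals, and ND4L and ND4 share 7 bases. ND6 on the minus strand (chrM:13552-14070) overlaps the end of ND5 on the plus strand (chrM:11742-13565). How reads in such stretches were assigned is unstated.
ATP8 and ATP6: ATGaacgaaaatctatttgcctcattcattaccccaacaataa
ATP8 had 428, 325 and 360.2 CPM in control cultures, against 369, 408 and 564 CPM under doxycycline. ATP6 had 1848, 1912 and 1343 CPM without doxycycline and 1423, 1687 and 1939.5 CPM with it. Both encode membrane subunits of the ATP synthase, and both were higher in induced than in control EFPC. Their edgeR log2 fold changes of 0.27 and -0.02 did not pass (adjusted p = 0.537 and 0.980).

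The ratio of mitochondrial to nuclear transcripts was higher after induction in each pair. All 13 mitochondrial transcripts together took 2.03%, 1.84% and 1.65% of the counts in the EF1, EF2 and EFPC controls and 1.55%, 1.86% and 2.35% in their induced partners, so the groups overlapped. The ratio of their summed counts to those of the 77 nuclear subunits was 1.41, 1.17 and 1.34 without doxycycline and 1.503, 1.84 and 2.18 with it. All induced ratios were above all control ratios, by factors of 1.07, 1.57 and 1.63 within the pairs. In complex IV the ratio was 4.14, 3.23 and 4.06 without doxycycline and 4.97, 6.14 and 6.40 with it, again without overlap. Complex V had 0.352, 0.345 and 0.308 without and 0.384, 0.474 and 0.540 with doxycycline. In complexes I and III the EF1 pair went the other way, the pair factors being 0.899, 1.47 and 1.47 and 0.939, 1.45 and 2.16. The difference between the genomes was not tested. The libraries were polyA-selected, and whether transcripts of both genomes were captured alike was not tested.

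**Figure D4:**
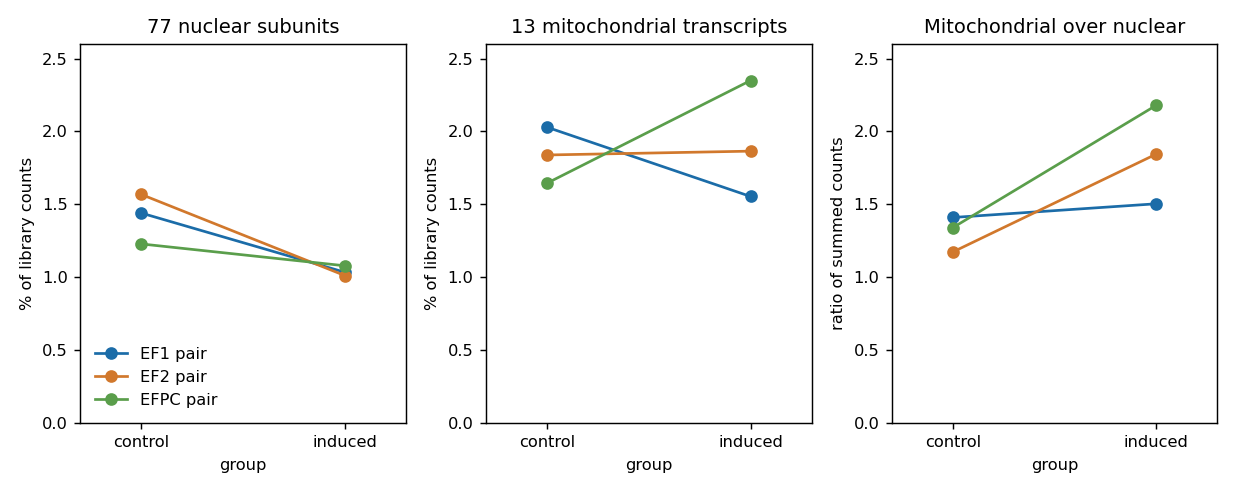
Percent of library counts held by the 77 nuclear subunits (left) and the 13 mitochondrial transcripts (middle), and the ratio of the summed counts (right), for control and induced libraries joined by culture pair, with linear axes from 0. The nuclear share is lower after induction in all 3 pairs, the mitochondrial share is lower in EF1 and higher in EFPC, and the ratio is higher in all 3 pairs.

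Genes that build or supply the chain without being part of it had a median edgeR log2 fold change of -0.14. Of 95 such genes in the lists, 93 were tested and 67 were negative, where 51.5% of all tested genes were negative. DESeq2 called 3 lower and 0 higher (backgrounds of 2.65% and 4.25%), and edgeR called 0. With the replicate block DESeq2 called 4 lower and 2 higher (backgrounds of 4.73% and 6.40%). The shares called were thus near or below those of all genes. The 3 called lower without the block were Sdhaf1, which helps to assemble complex II, Cox19, a copper-related assembly factor of complex IV, and Coq7, an enzyme of ubiquinone synthesis. Sdhaf1 had 21.9, 24.7 and 20.9 CPM in control cultures, against 14.5, 15.3 and 11.4 CPM under doxycycline (log2 fold change -0.69, SE 0.203, DESeq2 adjusted p = 0.0164, edgeR adjusted p = 0.161). Cox19 had 21.5 ± 1.22 CPM in controls and 13.9 ± 1.26 CPM in induced cultures (SD, n = 3 each, DESeq2 adjusted p = 0.0137, edgeR 0.161). Coq7 had 20.8 ± 1.71 CPM in controls and 13.7 ± 1.84 CPM in induced cultures (SD, n = 3 each, DESeq2 adjusted p = 0.0460, edgeR 0.175). In all 3 genes the induced mean was lower. The 19 tested assembly factors of complex IV had a median of -0.00, with 10 negative.

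Some genes of these lists had positive values, and 0 of them passed edgeR or, without the block, DESeq2. Lyrm7, an assembly factor of complex III that binds the Rieske protein, had 1.22, 1.31 and 0.577 CPM in control cultures, against 1.95, 1.69 and 1.64 CPM under doxycycline, with no overlap (log2 fold change 0.78, SE 0.419, DESeq2 adjusted p = 0.285, DESeq2 with the replicate block 0.254, edgeR adjusted p = 0.331). Sco1, which delivers copper to COX2, had 23.5, 22.6 and 24.8 CPM without doxycycline and 81.8, 51.9 and 23.7 CPM with it. Induced EF1 and EF2 were high and induced EFPC lay within the control range (DESeq2 log2 fold change 1.17, SE 0.407, adjusted p = 0.0561, with the replicate block 0.0479). Coa5, another complex IV assembly factor, had 190.4, 159 and 195 CPM in control cultures, against 353, 267 and 225 CPM under doxycycline, with no overlap (DESeq2 adjusted p = 0.0685, with the replicate block 0.0287). Pnpt1, an RNA-processing enzyme of mitochondria, had 134, 96.1 and 152 CPM without doxycycline and 306, 234 and 118 CPM with it (DESeq2 adjusted p = 0.183).

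The machinery of mitochondrial gene expression and its regulators did not pass the tests. Of 28 genes for copying, transcription and RNA handling, 23 had negative values, with a median of -0.11 and 0 calls by edgeR or DESeq2. Tfam, which packages and transcribes mitochondrial DNA, had 103, 93.1 and 87.2 CPM in control cultures, against 82.9, 79.1 and 79.7 CPM under doxycycline. Its groups did not overlap (log2 fold change -0.21, SE 0.150, DESeq2 adjusted p = 0.449, edgeR adjusted p = 0.385). The mitochondrial RNA polymerase gene Polrmt had 47.8 ± 3.90 CPM in controls and 41.5 ± 2.38 CPM in induced cultures (SD, n = 3 each). Lrpprc, which stabilises mitochondrial messengers, had 151 ± 16.4 CPM in controls and 128 ± 6.26 CPM in induced cultures (SD, n = 3 each). Of 8 regulators of mitochondrial biogenesis 4 were negative, with a median of 0.02. The regulator gene Nrf1 had 45.5 ± 4.55 CPM in controls and 47.9 ± 4.10 CPM in induced cultures, and the coactivator gene Ppargc1b had 14.6 ± 1.15 CPM in controls and 16.6 ± 1.51 CPM in induced cultures (SD, n = 3 each). Ppargc1a, a related coactivator, had at most 0.807 CPM in any library. Cycs, the cytochrome c that carries electrons from complex III to IV, had 139 ± 27.6 CPM in controls and 131 ± 15.0 CPM in induced cultures (SD, n = 3 each).

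Ribosomal protein genes give 2 comparisons of like size, and the difference from them was not tested. The 78 mitochondrial ribosomal protein genes, nuclear genes for the ribosome that makes the 13 proteins, had a median log2 fold change of -0.30 by edgeR, with 7 called lower by DESeq2 and 0 by edgeR. Their pair medians were -0.21, -0.38 and -0.31 in EF1, EF2 and EFPC. The 81 cytosolic ribosomal protein genes had a median of -0.20, with 1 called lower by DESeq2 and 0 by edgeR, and pair medians of -0.21, -0.39 and 0.13. Their controls stood at 0.06, 0.44 and -0.50 from the control mean in EF1, EF2 and EFPC, the same order of controls as in the nuclear respiratory genes. Groups that did not overlap, induced below control, were seen in 42 of the mitochondrial and 1 of the cytosolic ribosomal protein genes. Of all tested genes 13% were of that kind, and DESeq2 called 2.65% lower. Negative edgeR values were found in 72 of the 78 mitochondrial and 80 of the 81 cytosolic ribosomal protein genes, against 51.5% of all tested genes. In every pair 58 and 14 of them were lower, against 25.8% of all tested genes. A negative sign in nearly every gene was thus seen in these sets too.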

How the data were processed

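PolyA-selected, strand-specific libraries of 3 induced and 3 control Ba/F3 cultures were analysed from 1 deposited table. HISAT2, DESeq2 and build mm10 are named, without versions, in the submitters' processing notes. The sources used here do not give the counting program, the annotation, or how strand and multiply mapped reads were handled. The deposited read counts are whole numbers per gene, not normalized. The smallest count in any library is 1, so genes lacking reads somewhere were not analysed here. The authors also gave TPM values, used for levels between genes, and FPKM values, not used. Their log2 expression values, normalised signal (baseMean), signed fold change, standard error score and p-values were deposited too, and the DESeq2 fit here matched the authors' log2 fold changes within 1.4e-09.

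Counts were tested in R 4.3.3 with edgeR 4.0.16 (quasi-likelihood, TMM, filterByExpr, group as the only term, Benjamini-Hochberg over 13260 genes). DESeq2 1.42.0, limma-voom (limma 3.58.1), other scalings and filters, a replicate block and left-out libraries were alternatives. CPM are TMM-scaled, with a prior count of 2 for log2 values. The scripts were tested on simulated data. Same-numbered libraries deviated together from their group means (correlations 0.174, 0.342, 0.352 for replicates 1, 2 and 3). Control 1 with induced 2 had 0.149, and control 2 with induced 1 had 0.099. Correlations between replicate 3 and another number were -0.397 to -0.183. Deviations from a mean of 3 libraries sum to 0, so a positive correlation brings negative ones elsewhere, and the negative values are no separate evidence. The correlations set replicate 3 apart and separate EF1 from EF2 only weakly. Same-numbered libraries also share title prefixes, so the numbers were taken to pair them. Gene positions are from RefSeq GRCm38.p6, which all 107 members matched. Subunits were assigned to complexes by hand. Members and lists were chosen with earlier results of these data known.

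Genes were named by a rule: all mitochondrial members; nuclear members called by edgeR or DESeq2, with or without the block; in each complex the 2 highest by TPM and the 2 with the largest changes; isoform partners; and up to 3 genes a list with the smallest DESeq2 p, with Tfam, Polrmt, Ppargc1a, Ppargc1b, Nrf1, Cycs and Lrpprc. Chosen outside it, after their values were seen, were Atp5e, Atp5l-ps1, Atp5l-ps2, Atp5l2-ps, Atp5pb-ps, Cox7a2l, Ndufa6, Ndufa7, Ndufaf4, Sdha, Sdhb, Uqcrc1, Uqcrc2. With 3 libraries a group an exact permutation test cannot go below a two-sided p of 0.1, and none was run. A few items are not reported here.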

Additional observations from a re-analysis of the deposited data

How the results depend on the processing

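The negative medians of the nuclear members and of complexes I to V kept their sign in all 17 alternatives, and the mitochondrial median did not. The 0 calls of edgeR over all genes became 558 higher and 348 lower with DESeq2, and 770 and 569 with DESeq2 and the replicate block, while nuclear members called lower became 12 and 22. EdgeR called 0 genes with the replicate block, RLE scaling, TMM from nuclear genes, no filter or a minimum mean of 1 CPM, and limma-voom 0. Leaving out single libraries gave 0 to 619 genes higher, 0 to 273 lower and 0 to 9 nuclear members lower, the values above 0 all coming without induced replicate 3. Without replicate 3 of both groups edgeR called 1300 higher and 844 lower, among them 37 nuclear members (all 12 that DESeq2 called among them) and 2 mitochondrial members. The mitochondrial median was -0.27 when replicate 3 was left out of both groups and 0.27 when replicate 1 was. The complex II median was -0.41 without replicate 3 of both groups, and those of complexes III and V were -0.36 and -0.37 without replicate 2. With single libraries left out the median was -0.42 to -0.21 in complex II, -0.59 to -0.40 in complex III and -0.69 to -0.35 in complex IV, which was -0.34 without replicate 2 of both groups. Of the named genes, 11 changed sign in an alternative. With single libraries left out, their log2 fold changes were -0.16 to 0.10 for ATP6, -0.24 to 0.11 for COX2, -0.23 to 0.082 for COX3, -0.16 to 0.28 for CYTB, -0.11 to 0.20 for ND2, -0.18 to 0.22 for ND4, -0.29 to 0.055 for ND6, -0.39 to 0.096 for Atp5g2, -0.30 to 0.097 for Ndufb9, -0.20 to 0.062 for Cycs and -0.81 to 0.12 for Ppargc1a. ATP6 was 0.0064 with no filter and 0.0042 with DESeq2 and the replicate block. Without replicate 1 of both groups, ATP6, COX2 and COX3 were 0.16, 0.15 and 0.068, and without replicate 2 ATP6, COX2, COX3 and ND6 were 0.098, 0.099, 0.027 and 0.16. Without replicate 3, CYTB, ND2, ND4, Cycs and Ppargc1a were -0.28, -0.10, -0.22, 0.12 and 0.22. The cause of these differences was not tested.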
